A study of Mus musculus with 36 samples.

Results

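The DNA replication and E2F genes are 42 mouse genes, chosen by symbol from the 46078 genes in the count files, and all 42 were found in the files. By role, 10 encode factors that mark origins and load the replicative helicase, 6 activate the helicase, 5 form the sliding clamp and its loader, 7 are subunits of the polymerases and primase, 2 finish Okazaki fragments, 5 supply deoxynucleotides, 4 are E2F factors and E-type cyclins, and 3 act on newly replicated chromatin. RNA was sequenced from 36 libraries in 12 groups of 3. RM-1-BM, a mouse prostate cancer cell line, had been transduced with the F133V mutant of SPOP or with empty vector (EV), was grown alone or in transwell coculture with RAW264.7 macrophages, and received olaparib or DMSO, the vehicle, which makes 8 groups and 24 libraries. RAW264.7, a mouse macrophage line, was taken from the cocultures with vector or F133V partner cells and with olaparib or DMSO, which makes 4 groups and 12 libraries, so every macrophage library had a cancer cell partner. SPOP is the substrate adaptor of a CUL3 ubiquitin ligase, and olaparib inhibits the poly(ADP-ribose) polymerases PARP1 and PARP2. The labels give no dose, no time, no promoter for the transduced gene and no statement that the replicates are separate cultures, so p-values measure the spread between these libraries, which may be technical. In the sentences below a vector cell is an RM-1-BM cell with empty vector and an F133V cell is one with the mutant.

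Replication starts when the origin recognition complex, CDC6 and CDT1 load rings of MCM2-7 onto DNA in G1 phase. CDC45 and the GINS complex join MCM2-7 to make the active helicase in S phase, polymerase alpha with primase lays down primers, the RFC loader places the PCNA clamp, and polymerases epsilon and delta extend the leading and lagging strands. FEN1 and LIG1 trim and seal the lagging-strand fragments, ribonucleotide reductase, thymidylate synthase, thymidine kinase and dUTPase keep the nucleotide pools, and CAF-1 and UHRF1 restore nucleosomes and DNA methylation marks behind the fork. E2F factors, held in check by RB proteins until cyclin-dependent kinases act, drive transcription of many of these genes as cells enter S phase.

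Promoter windows of 250 bases before to 50 bases after the start site were taken from RefSeq (GRCm38.p6), where 34 of the 42 members matched. The E2F words TTTCCCGC, TTTGGCGC, TTTCGCGC and TTTGCCGC were searched on both strands, and overlapping matches were kept as 1 run. At least 1 of these words was present in 15 of the 34 member genes (44.1%) and in 704 of all 27025 genes with a window of this kind (2.6%). The NF-Y word CCAAT was present in 19 members (55.9%) against 41.1% of all genes, and the cell cycle homology region word TTTGAA in 5 members (14.7%) against 20.2%. The windows upstream of 3 members of different roles, in which no annotated exon lies, are printed as examples. They were chosen for their E2F words, so they do not stand for all 34 members. Each ends on the base before the RefSeq start, is written 5′ to 3′ on the gene's strand, and has the E2F matches, and no others, in capitals.
Mcm6, chr1:128359706-128359955, minus strand: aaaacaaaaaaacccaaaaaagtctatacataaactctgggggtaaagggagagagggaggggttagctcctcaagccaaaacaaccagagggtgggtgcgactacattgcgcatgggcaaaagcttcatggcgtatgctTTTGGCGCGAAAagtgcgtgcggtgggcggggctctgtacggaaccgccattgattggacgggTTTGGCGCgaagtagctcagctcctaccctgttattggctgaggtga
Pola1, chrX:93632156-93632405, minus strand: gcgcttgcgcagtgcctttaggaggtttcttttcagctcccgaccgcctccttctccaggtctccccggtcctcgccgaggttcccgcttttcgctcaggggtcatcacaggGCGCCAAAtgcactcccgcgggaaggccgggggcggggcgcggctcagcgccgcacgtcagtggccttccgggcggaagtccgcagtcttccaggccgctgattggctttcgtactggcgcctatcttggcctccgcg
Uhrf1, chr17:56304063-56304312, plus strand, before its downstream RefSeq start: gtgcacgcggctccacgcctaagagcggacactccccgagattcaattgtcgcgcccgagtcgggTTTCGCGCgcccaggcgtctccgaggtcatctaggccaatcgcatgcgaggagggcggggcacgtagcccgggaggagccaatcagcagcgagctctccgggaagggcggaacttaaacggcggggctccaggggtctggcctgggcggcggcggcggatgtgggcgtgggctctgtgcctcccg
Shorter stretches around the match are given for 6 members whose levels are described below.
Mcm5, chr8:75109348-75109375, plus strand: ccaagaacTTTCGCGCCAAAacgtccag
Cdc6, chr11:98908003-98908030, plus strand: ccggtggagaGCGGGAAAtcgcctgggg
Orc1, chr4:108579417-108579444, plus strand: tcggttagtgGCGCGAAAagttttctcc
Gins3, chr8:95633508-95633535, plus strand: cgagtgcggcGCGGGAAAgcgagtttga
Rfc3, chr5:151651201-151651228, minus strand: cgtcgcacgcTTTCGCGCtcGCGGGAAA
E2f2, chr4:136172303-136172323, plus strand: cggcatatagTTTGGCGCtaa
Counted from the start site, the words began at base −110 and base −47 in Mcm6, at base −153 in Mcm5, and at base 40 in E2f2. A match is a description of the letters, not evidence that a factor binds there, and a gene with no match has none of these words in this window.

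The 36 libraries held 30292309 to 43062440 gene counts, so a member at 10 CPM (counts scaled to the library total) rested on well over 100 counts in each library. CPM here is scaled by edgeR's TMM factors within each cell type, levels are given as 3 libraries or as mean ± SD (n = 3), and a log2 fold change is given ± its standard error from edgeR's quasi-likelihood test. A gene is called where its p, adjusted by Benjamini-Hochberg over all genes tested, is under 0.05, and all 42 members were tested among 15962 genes in the cancer cells and 14262 in the macrophages. The summed CPM of 12 macrophage markers was 12.4 to 27.9 in the cancer libraries and 9442 to 11189 in the macrophages, and the sum of 10 cancer cell markers was 2230 to 9891 in the cancer libraries and 2.63 to 5.24 in the macrophages. Fn1 made up most of the cancer cell marker sum, at 1400 to 9235 CPM over the cancer groups. The epithelial markers Epcam and Cdh1 and the collagen genes Col1a1 and Col1a2 were below 1 CPM in every cancer group. The keratin gene Krt8 was at 15.4 to 31.4 CPM in the vector groups and 0.27 to 0.38 in the F133V groups. Krt18, the other keratin gene listed, did not follow it, at 63.9 to 128 CPM in the vector groups and 62.4 to 370 in the F133V groups. The macrophage gene Lyz2 stood at 3.38, 4.36 and 0.70 CPM in the 3 DMSO-treated vector libraries grown alone. Structural RNA genes, among them those of small nuclear RNAs and ribozymes, made up 56.5 to 65.2 CPM in the vector groups, against 374 CPM in F133V cells alone with DMSO, 179 with olaparib, 477 in coculture with DMSO and 101 in coculture with olaparib. The gene Gm26917, not a member, took 3.8% of gene counts in F133V cells alone with DMSO and 3.6% in coculture with DMSO. With olaparib it took 1.4% alone and 0.49% in coculture, and in the vector groups 0.16% to 0.26%. The F133V coculture DMSO libraries had the lowest TMM factors, 0.849 to 0.866, where the other cancer libraries had 0.980 to 1.056. The part of these differences in the results below was not tested. In bulk RNA, fewer cells in S phase and less RNA per cell cannot be told apart. With no strand setting stated for the counting, members whose exons overlap another gene by over 10% are uncertain: Fen1 (84.2% of its exonic bases, Gm10143 and Tmem258 together), Gins2 (67.3%, Gse1), Chaf1a (52.5%, Ubxn6), Ccne2 (17.4%, Ints8), Rfc2 (15.1%, Lat2), Rfc4 (12.7%, Eif4a2), Mcm7 (12.6%, Ap4m1, Cops6, Mir25 and Mir93), Orc1 (10.8%, Gm12743) and Rfc5 (10.7%, Wsb2).

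The first question the design poses is how F133V cells differ from vector cells. In F133V cells grown alone with DMSO, 34 of the 42 members were lower and 5 were higher than in vector cells, where 34% of all genes tested were called lower and 33.7% higher. The median log2 fold change of the members was −0.52, against 0.0013 over all genes tested. The 42 members together summed to 1359 ± 3.72 CPM in vector cells and 1098 ± 8.11 CPM in F133V cells. By role, 8 of 10 origin and helicase-loading genes, 5 of 6 helicase-activation genes, 3 of 5 clamp and clamp-loader genes, 6 of 7 polymerase and primase genes, 1 of 2 Okazaki fragment genes, 4 of 5 nucleotide supply genes, all 4 E2F and cyclin E genes and all 3 chromatin genes were lower. The 5 members that were higher were Dut, Fen1, Mcm2, Mcm7 and Pola2.

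The lowest fold was that of E2f2 (chr4:136172394-136196057), an activating E2F factor. E2f2 stood at 14.1, 12.6 and 15.2 CPM in the vector libraries and at 2.18, 2.75 and 2.52 CPM in the F133V libraries, with no overlap (log2 fold change −2.48 ± 0.10, adjusted p = 3.0e-23). All 3 F133V libraries lay far below all 3 vector libraries. E2f1, another activating E2F, differed less, at 28.7 ± 0.95 against 22.5 ± 1.48 CPM (log2 fold change −0.35 ± 0.056, adjusted p = 8.6e-07). The cyclin E genes, which encode the partners of CDK2 at the start of S phase, were also lower, with Ccne1 (chr7:38097984-38107534) at 12.9, 12.0 and 12.3 CPM in vector and 5.25, 5.52 and 4.16 CPM in F133V libraries (log2 fold change −1.31 ± 0.085, adjusted p = 1.1e-16). Ccne2 was lower by less (log2 fold change −0.54 ± 0.11, adjusted p = 2.4e-05), and neither cyclin gene's groups overlapped.

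Uhrf1 (chr17:56303321-56323486), which reads hemimethylated DNA behind the fork, stood at 43.7, 44.9 and 46.0 CPM in vector and 16.1, 14.9 and 16.2 CPM in F133V libraries. All 3 F133V libraries lay below all 3 vector libraries (log2 fold change −1.52 ± 0.047, adjusted p = 5.8e-27). Tk1 (chr11:117815526-117826092), thymidine kinase, stood at 10.2, 11.5 and 10.9 CPM against 4.39, 3.60 and 3.69 CPM. The Tk1 groups did not overlap (log2 fold change −1.48 ± 0.10, adjusted p = 8.4e-17), and the other lower nucleotide genes were Rrm1, Rrm2 and Tyms, with log2 fold changes of −0.61, −0.65 and −0.42. Pole (chr5:110286306-110337474), the catalytic subunit of polymerase epsilon, stood at 22.2, 23.2 and 20.8 CPM against 9.90, 9.12 and 9.93 CPM (log2 fold change −1.196 ± 0.066, adjusted p = 7.1e-19). Its partner Pole2 had a log2 fold change of −0.40 and the polymerase delta catalytic gene Pold1 one of −0.29, so Pole had the lowest fold of the polymerase genes.

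Among the helicase loaders, Cdc6 had the lowest fold (log2 fold change −0.80 ± 0.087, adjusted p = 2.3e-10) and Orc6 the smallest called decrease (log2 fold change −0.41 ± 0.048, adjusted p = 7.6e-10). Of the MCM2-7 ring, Mcm3, Mcm4, Mcm5 and Mcm6 were lower, with Mcm5 (chr8:75109569-75128439) at 27.7, 28.7 and 29.1 CPM in vector and 17.3, 16.7 and 17.8 CPM in F133V libraries (log2 fold change −0.72 ± 0.053, adjusted p = 2.8e-15). Mcm2 and Mcm7, which encode 2 other subunits of the same ring, were higher. Mcm2 (chr6:88883474-88898780) stood at 106, 103 and 104 CPM against 118, 121 and 119 CPM (log2 fold change 0.19 ± 0.027, adjusted p = 6.3e-08). The 3 F133V libraries were all above the 3 vector libraries for Mcm2, by a small margin. Gins2, the helicase-activation gene with the lowest fold, had a log2 fold change of −0.95 ± 0.10, and Gins1 was not called (log2 fold change 0.10 ± 0.15, adjusted p = 0.57). Pcna, the sliding clamp, was not called either, at 77.0, 78.4 and 77.5 CPM and 78.9, 75.1 and 82.5 CPM, and its groups overlapped (log2 fold change 0.022 ± 0.032, adjusted p = 0.57).

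The same genotype comparison was made in 3 more settings, which use other libraries. The group labels name the cells only as EV or F133V, so all 4 settings may share the same transduced lines. Grown alone with olaparib, 38 members were lower and 1, Dut, was higher (33.2% and 34.3% of all genes), with a median log2 fold change of −0.88. In coculture with DMSO, 31 were lower and 5 higher (42% and 37.4% of all genes; median −0.52). That split was 25 lower and 8 higher with length and GC trends removed, where 52.6% of all genes called were higher, against 47.1% before. In coculture with olaparib, 37 were lower and 3 higher (31.2% and 28.8%; median −0.63). 29 members were lower in F133V cells in all 4 settings, where 16.1% of all genes tested were. 7 members, Dut, Fen1, Mcm10, Mcm2, Mcm7, Pcna and Pola2, were higher in at least 1 setting, where 56.5% of all genes were. Grown alone with olaparib, the 5 lowest folds were those of E2f2 (−2.29), Uhrf1 (−1.89), Orc1 (−1.77), Pole (−1.76) and Gins2 (−1.74) on the log2 scale. In coculture with DMSO, Tk1 had the lowest fold of any member, with 12.4, 11.7 and 11.6 CPM in vector and 2.57, 1.84 and 1.75 CPM in F133V libraries (log2 fold change −2.53 ± 0.11, adjusted p = 1.4e-22). In coculture with olaparib, Chaf1b, a CAF-1 subunit, had the lowest fold, with 17.6, 17.2 and 15.2 CPM in vector and 4.30, 5.05 and 3.45 CPM in F133V libraries (log2 fold change −1.97 ± 0.09, adjusted p = 2.7e-21).

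**Figure D1:**
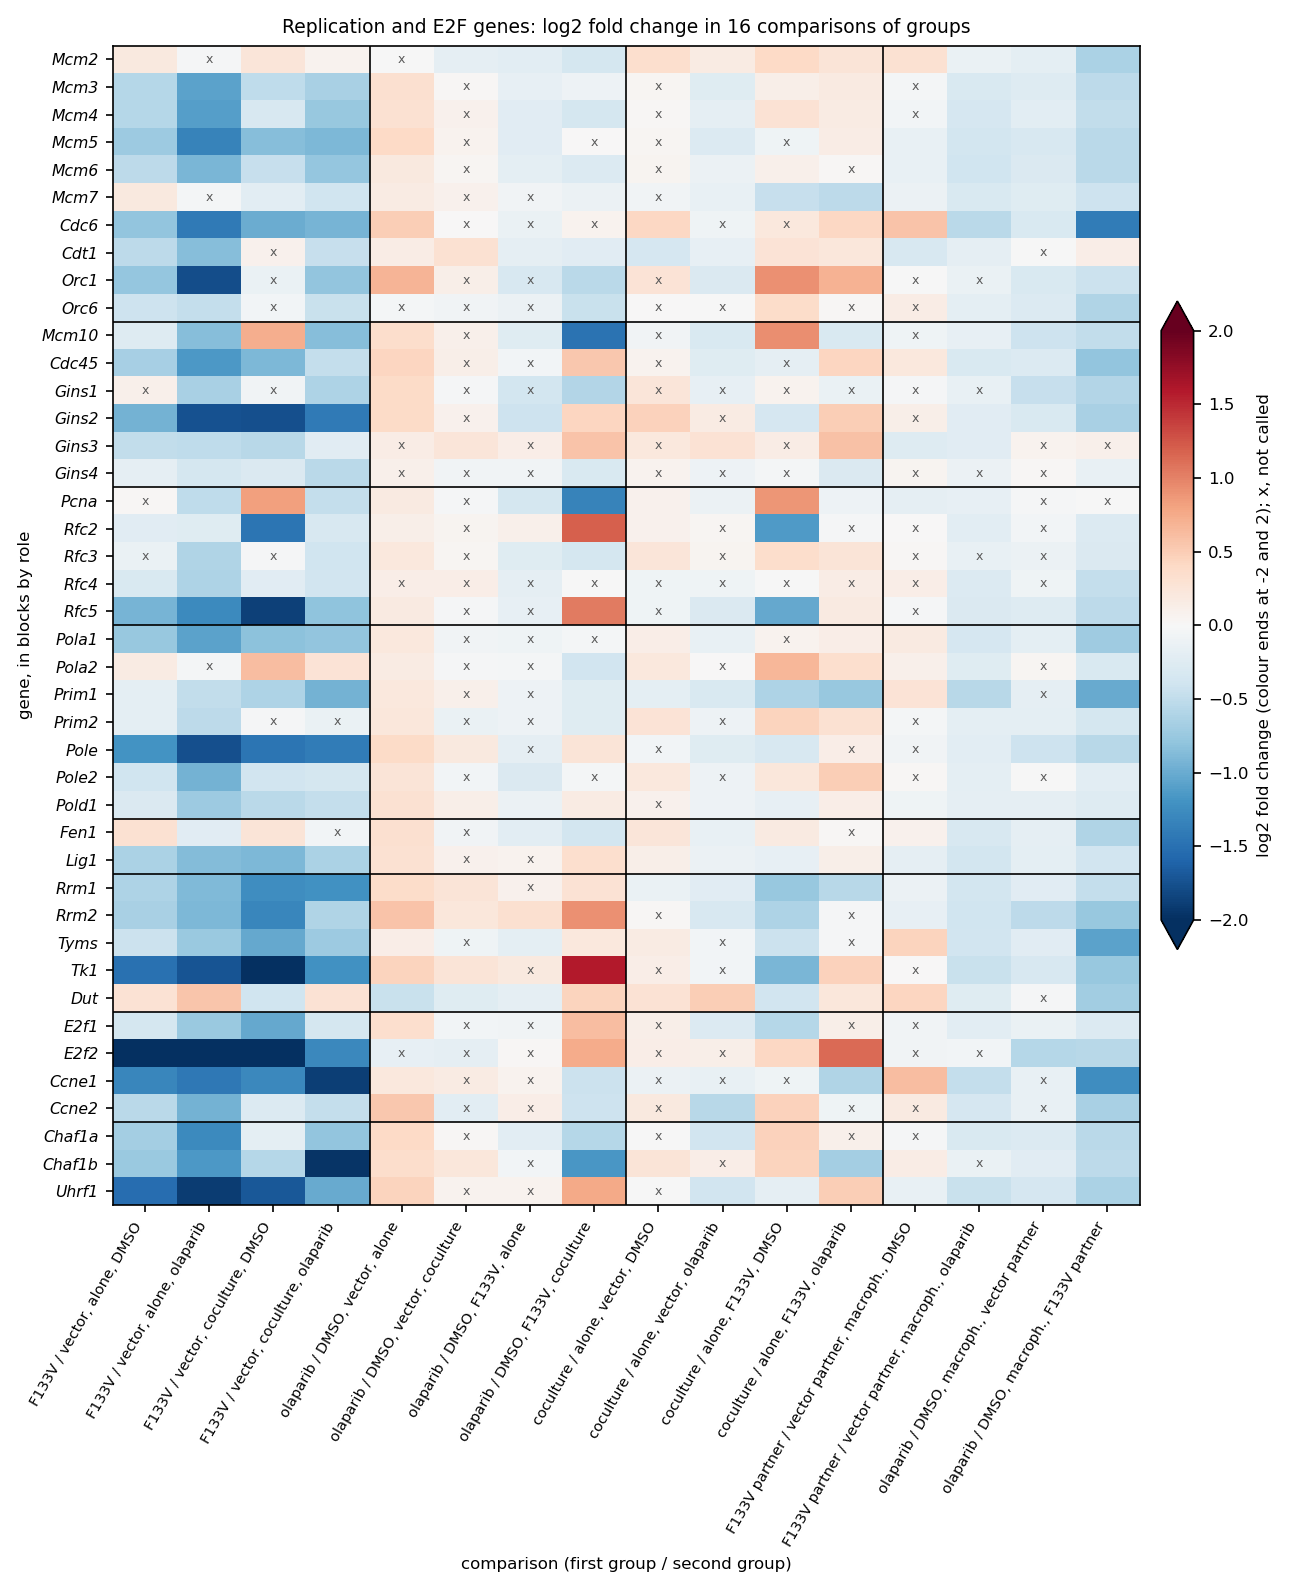
Log2 fold change (colour) of each of the 42 members (rows, in blocks by role) in 16 comparisons of 2 groups (columns, first group over second), with an x where the member was not called. The first 4 columns, F133V over vector, are blue in most rows, and the last 2, olaparib over DMSO in macrophages, are pale to mid blue in most rows.

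How each cell responds to olaparib is the next question. In vector cells alone, 35 members were higher with olaparib and 1, Dut, was lower (15.3% and 15.1% of all genes tested were called higher and lower), with a median log2 fold change of 0.28. The members rose by small amounts: the largest log2 fold change was that of Orc1 (0.68) and the smallest called rise that of Rfc2 (0.11). The sum over the 42 members was 1579 ± 16.6 CPM with olaparib against 1359 ± 3.72 with DMSO. In F133V cells alone, 16 members were lower and 2 higher (17.9% and 18.2% of all genes, median −0.13). Where libraries were scaled by their size alone, 9 were lower and 5 higher. Under that scaling 74.6% of all genes called were higher, against 50.5% under TMM. 14 members, beside 1.6% of all genes tested, rose in vector cells and fell in F133V cells: Cdt1, Chaf1a, Fen1, Gins2, Mcm10, Mcm3, Mcm4, Mcm5, Mcm6, Pcna, Pold1, Pole2, Rfc3 and Tyms. The difference between the 2 responses, tested as an interaction, was called below 0 for 33 members and above 0 for 1, where 10.9% and 13.3% of all genes tested were called in those directions. The F133V olaparib libraries grown alone varied most. Their median SD over the members was 6.2% of the mean, against 2.66% to 5.22% in the other groups. Calls there rest on a spread shared by all cancer groups. With only the F133V groups grown alone in the fit, 4317 of 14229 genes tested were called with olaparib, against 5772 of 15962.

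Orc1 (chr4:108579423-108614833), the largest subunit of the origin recognition complex, stood in vector libraries at 3.76, 4.41 and 4.12 CPM with DMSO and 6.43, 6.76 and 6.57 CPM with olaparib (log2 fold change 0.68 ± 0.11, adjusted p = 5.4e-06). In F133V libraries it stood at 3.10, 2.31 and 1.82 CPM with DMSO and 2.24, 2.07 and 1.46 CPM with olaparib, where the groups overlapped and the change was not called (log2 fold change −0.31 ± 0.16, adjusted p = 0.13). The interaction, on the log2 scale, was −0.997 ± 0.20, adjusted p = 1.5e-04, the lowest of the members. Mcm5 stood at 37.3, 39.4 and 35.5 CPM in vector libraries with olaparib, above the 28.5 ± 0.72 CPM with DMSO (log2 fold change 0.39 ± 0.046, adjusted p = 8.7e-09). In F133V libraries Mcm5 stood at 17.3, 16.7 and 17.8 CPM with DMSO and 16.3, 14.3 and 13.7 CPM with olaparib, all 3 below the DMSO libraries (log2 fold change −0.22 ± 0.059, adjusted p = 0.003), with an interaction of −0.61 ± 0.075, adjusted p = 4.8e-08. Pcna (chr2:132249162-132253314) stood at 87.2, 89.7 and 85.9 CPM in vector libraries with olaparib, above its DMSO libraries (log2 fold change 0.18 ± 0.032, adjusted p = 2.6e-05). In F133V libraries it stood at 63.1, 61.6 and 60.2 CPM with olaparib, below its DMSO libraries (log2 fold change −0.35 ± 0.033, adjusted p = 4.3e-11).

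Rrm2, the regulated small subunit of ribonucleotide reductase, was called higher in both cell lines. It stood at 68.8, 68.5 and 66.7 CPM in vector libraries with DMSO and 98.0, 102 and 103 CPM with olaparib (log2 fold change 0.57 ± 0.032, adjusted p = 2.5e-17). In F133V libraries it stood at 42.4, 43.5 and 43.9 CPM with DMSO and 55.0, 56.7 and 50.4 CPM with olaparib (log2 fold change 0.32 ± 0.037, adjusted p = 4.2e-09). Rrm2 thus rose in both, by less in F133V cells (interaction −0.25 ± 0.049, adjusted p = 1.2e-04). Dut (chr2:125247190-125258608), the dUTPase that keeps uracil out of DNA, was the member that fell in vector cells, at 94.0, 92.9 and 92.2 CPM with DMSO and 68.8, 69.0 and 67.7 CPM with olaparib (log2 fold change −0.44 ± 0.027, adjusted p = 3.1e-16). It fell in F133V cells too, with 116, 112 and 114 CPM and then 98.7, 103 and 99.8 CPM (log2 fold change −0.18 ± 0.026, adjusted p = 4.5e-07). Its interaction, 0.26 ± 0.037, adjusted p = 1.2e-06, was the only one called above 0. Without the 2 vector libraries high in Lyz2, a check added after seeing the data, 24 members rose and 2 fell with olaparib in vector cells alone, and 30 interactions were called. That check leaves 1 library of vector cells alone with DMSO, which is assumed to vary like the other groups.

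**Figure D2:**
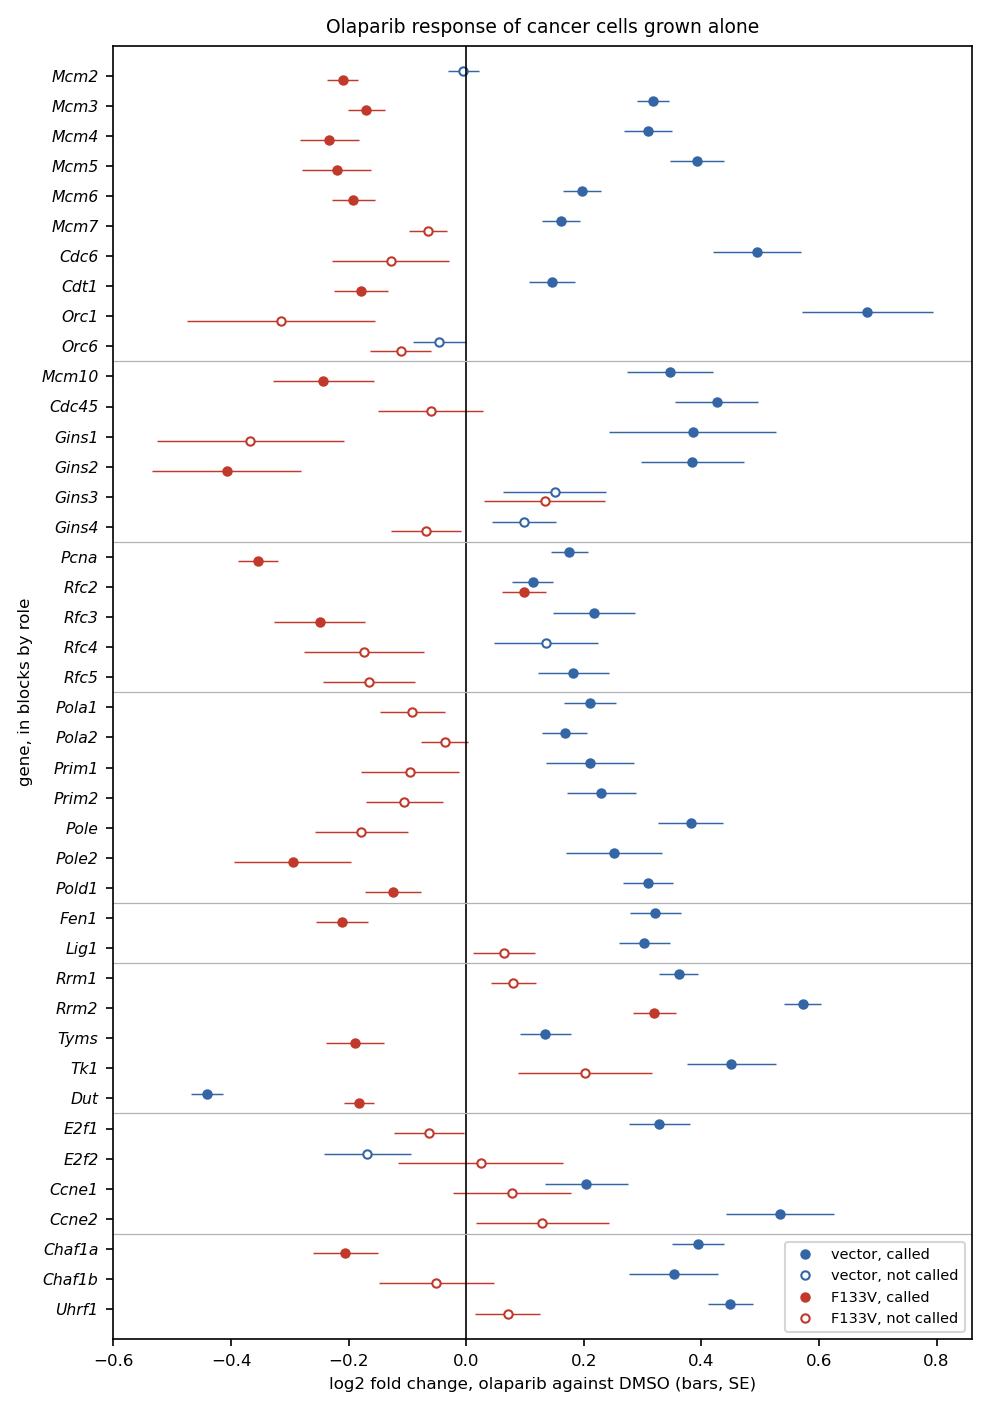
Log2 fold change with olaparib (horizontal axis, bars are SE) of each member in cancer cells grown alone, for vector (blue) and F133V (red) cells; filled points were called. Most blue points lie to the right of 0 (35 called higher) and most red points at or to the left of it (16 called lower).

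In coculture the olaparib responses were of other sizes. In vector cells in coculture, 8 members rose (Cdt1, Chaf1b, Gins3, Pold1, Pole, Rrm1, Rrm2 and Tk1) and 2 fell (Dut and Mcm2), beside 12.6% and 10.9% of all genes, with a median log2 fold change of 0.051. With only those 2 groups in the fit, 11 rose and 5 fell, and with length and GC trends removed 6 rose and 5 fell. With the trends removed 37.4% of all genes called rose, against 53.6% before. Cdt1, the helicase-loading factor that is destroyed in S phase, had the largest rise, with 41.1, 40.8 and 40.9 CPM under DMSO and 52.1, 50.6 and 48.9 CPM under olaparib (log2 fold change 0.31 ± 0.041, adjusted p = 2.2e-07). The 3 olaparib libraries were all above the DMSO libraries. In F133V cells in coculture, 21 members fell and 16 rose (37% and 39.3% of all genes, median −0.072). Scaling by library size alone gave 11 falls and 21 rises, where 63.5% of all genes called rose, against 51.5% under TMM. By role, 8 of 10 origin and helicase-loading genes fell, of which Mcm3 and Mcm7 changed sign under scaling by library size alone, and Cdc6 and Mcm5 were not called. All 5 nucleotide supply genes rose, and the other roles held members of both kinds.

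Several members had their highest or lowest level of the cancer cells in F133V coculture with DMSO. Pcna stood at 141, 150.1 and 146 CPM there, against 78.9, 75.1 and 82.5 CPM alone with DMSO and 59.0, 55.3 and 58.5 CPM in coculture with olaparib. All 3 libraries were above every other cancer library. Pcna was higher in coculture than alone (log2 fold change 0.89 ± 0.031, adjusted p = 4.1e-25) and lower with olaparib in coculture (log2 fold change −1.34 ± 0.032, adjusted p = 5.1e-31), 2 comparisons that share the coculture DMSO libraries. Mcm10 (chr2:4989714-5012791), which helps switch on the helicase, stood at 20.7, 20.7 and 18.9 CPM there, against 12.3, 9.71 and 9.90 CPM alone and 7.73, 7.45 and 6.54 CPM with olaparib. Its coculture DMSO libraries were the highest of the cancer cells, and it fell with olaparib in coculture (log2 fold change −1.48 ± 0.079, adjusted p = 1.6e-19). Pola2 (chr19:5940542-5964202), the accessory subunit of polymerase alpha, stood at 70.9, 72.9 and 72.4 CPM there, against 46.2, 44.5 and 45.2 CPM alone and 57.2, 53.5 and 55.8 CPM with olaparib (log2 fold change −0.38 ± 0.036, adjusted p = 4.3e-12). Chaf1b (chr16:93883901-93906115) stood at 9.73, 9.60 and 9.55 CPM there, 6.68, 6.65 and 7.91 CPM alone and 4.30, 5.05 and 3.45 CPM with olaparib (log2 fold change −1.17 ± 0.10, adjusted p = 1.6e-13). These 4 genes were all high in that group beside the F133V cells grown alone with DMSO. Chaf1b was not at its highest of the cancer cells there, since the vector libraries stood at 11.6 to 17.6 CPM.

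Other members were low in the same libraries. Rfc2 (chr5:134581366-134601805), a clamp-loader subunit, stood at 21.5, 21.8 and 22.0 CPM in F133V coculture with DMSO, against 47.2, 47.2 and 48.5 CPM alone and 49.2, 51.5 and 49.4 CPM with olaparib. Rfc2 was lower in coculture than alone (log2 fold change −1.13 ± 0.043, adjusted p = 3.9e-24) and rose with olaparib in coculture (log2 fold change 1.201 ± 0.042, adjusted p = 1.3e-25). Rfc5 (chr5:117378103-117389047), another loader subunit, stood at 5.93, 4.84 and 5.13 CPM there, 9.96, 11.6 and 10.8 CPM alone and 11.4, 10.4 and 11.0 CPM with olaparib (log2 fold change 1.04 ± 0.088, adjusted p = 1.1e-13). Rfc3 and Rfc4, the 2 other small loader subunits in the list, did not share this: Rfc3 fell with olaparib in coculture (−0.34 ± 0.072) and Rfc4 was not called (log2 fold change −0.011 ± 0.10, adjusted p = 0.92). Tk1 stood at 2.57, 1.84 and 1.75 CPM in that group, 4.39, 3.60 and 3.69 CPM alone and 6.55, 6.16 and 5.84 CPM with olaparib (log2 fold change 1.58 ± 0.12, adjusted p = 1.1e-14). Rrm2 (chr12:24708241-24714146) stood at 28.4, 28.7 and 27.1 CPM there, 42.4, 43.5 and 43.9 CPM alone and 53.1, 53.8 and 52.4 CPM with olaparib (log2 fold change 0.92 ± 0.039, adjusted p = 8.7e-23). For these 4 genes every coculture DMSO library was below every library of the other 2 groups. Of the F133V groups E2f2 was highest in coculture with olaparib, at 6.07, 5.64 and 4.92 CPM, against 3.14, 3.92 and 2.74 CPM with DMSO (log2 fold change 0.74 ± 0.11, adjusted p = 1.8e-07), and these 3 libraries were still below every vector library.

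Other members are given across the F133V groups and, where stated, the vector groups. Rrm1 (chr7:102441695-102469771), the large subunit of ribonucleotide reductase, stood at 48.3 ± 0.76 CPM in F133V cells alone with DMSO, 51.1 ± 3.02 with olaparib, 28.6 ± 1.23 in coculture with DMSO and 34.9 ± 0.96 in coculture with olaparib. Both coculture levels were below both levels of cells grown alone. Dut stood at 87.4, 88.1 and 84.9 CPM in F133V coculture with DMSO and 119, 119 and 115 CPM with olaparib, a rise (log2 fold change 0.44 ± 0.026, adjusted p = 4.9e-18). In vector coculture Dut fell instead, with 115, 112 and 115 CPM and 97.6, 95.8 and 96.0 CPM (log2 fold change −0.24 ± 0.026, adjusted p = 1.5e-09). Prim1 was lower in coculture than alone in F133V cells with DMSO (−0.62 ± 0.09) and with olaparib (−0.76 ± 0.09). Lig1, the replicative ligase, stood at 23.6 ± 1.08 CPM in vector cells alone with DMSO and between 13.7 ± 0.21 and 17.3 ± 0.59 CPM in the F133V groups. Cdc45 (chr16:18780447-18811987) stood at 12.0 ± 0.75 CPM in vector cells alone with DMSO and 7.55 ± 0.27 CPM in F133V cells, and rose with olaparib in F133V coculture (log2 fold change 0.54 ± 0.086, adjusted p = 5.1e-07). Gins3, a GINS subunit, rose with olaparib in both cocultures (0.24 ± 0.084 in vector and 0.57 ± 0.094 in F133V cells). Mcm7 stood at 82.6 ± 3.19 CPM in F133V cells alone with DMSO and 59.6 ± 1.89 CPM in coculture (log2 fold change −0.47 ± 0.033, adjusted p = 1.5e-15), while Mcm2 stood at 119 ± 1.32 and 156 ± 0.45 CPM (log2 fold change 0.39 ± 0.026, adjusted p = 2.1e-16), so the 2 ring subunits moved apart. Fen1, whose exons mostly overlap other genes, was higher in F133V cells alone with DMSO (0.31 ± 0.044) and lower alone with olaparib (−0.22 ± 0.044).

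**Figure D3:**
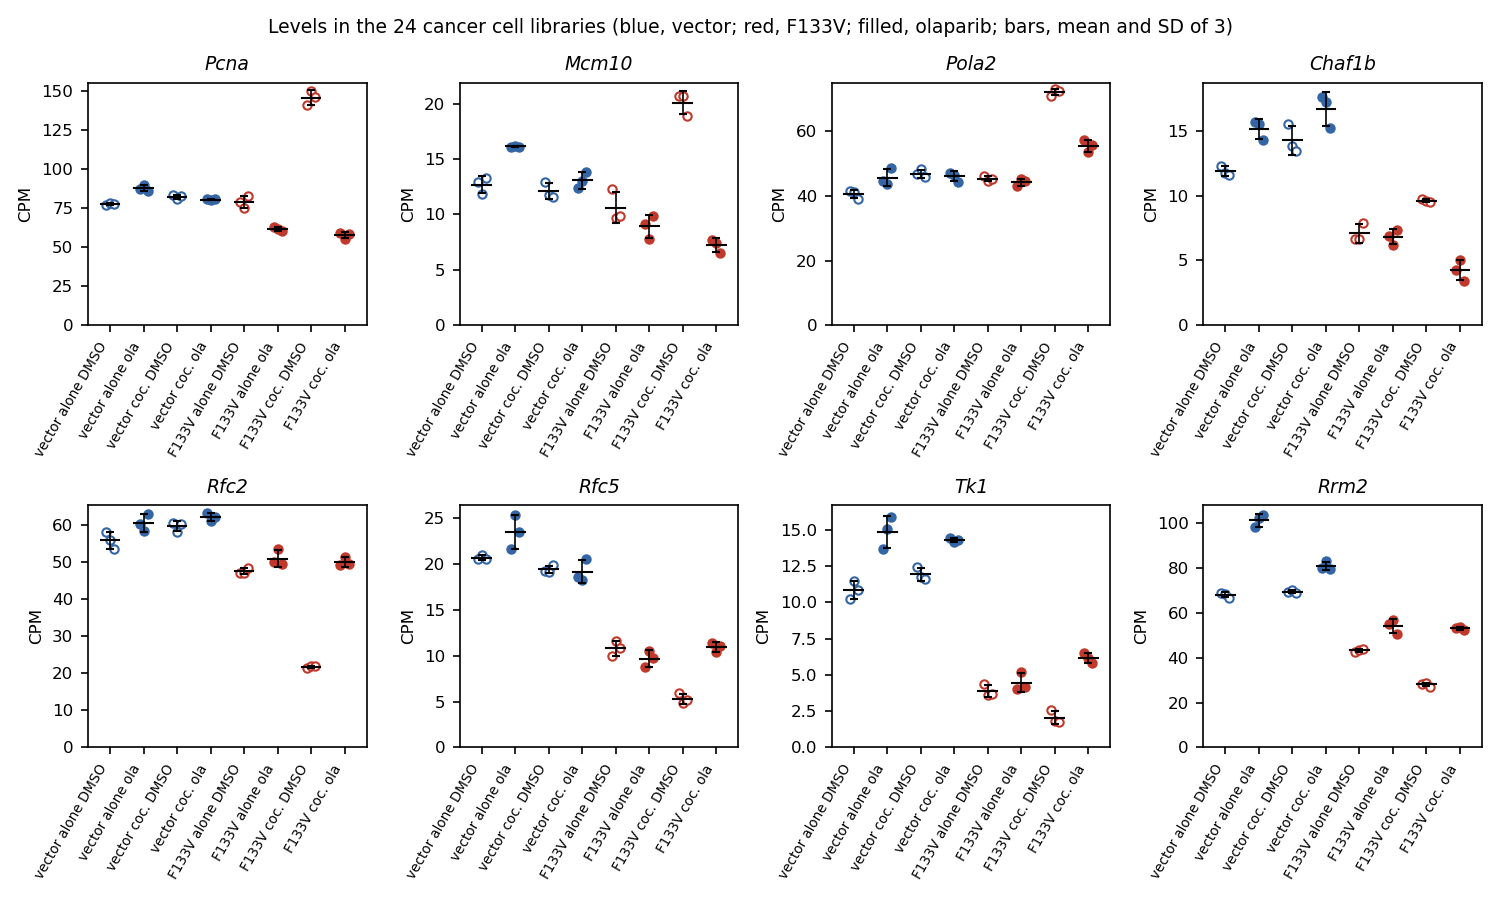
CPM of 8 members in each of the 24 cancer cell libraries (points; horizontal bars are the mean of 3 and vertical bars the SD), vector in blue, F133V in red, filled where olaparib was given. Pcna, Mcm10 and Pola2 are highest, and Rfc2, Rfc5, Tk1 and Rrm2 lowest, in F133V coculture with DMSO, and Chaf1b is lowest in F133V coculture with olaparib.

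Coculture with macrophages was the remaining factor for the cancer cells. In vector cells with DMSO, 15 members were higher in coculture than alone and 3, Cdt1, Prim1 and Rrm1, were lower (23.4% and 18.6% of all genes; median 0.09). The split was 10 higher and 4 lower under scaling by library size alone, 11 higher and 4 lower with DESeq2, and 11 higher and 1 lower without the 2 vector libraries high in Lyz2, with 1 library left in the group grown alone and its spread taken from the other groups. Of all genes called in this comparison, 42.2% were higher under scaling by library size alone, against 55.7% under TMM. Mcm2 stood at 131, 130.0 and 135 CPM in coculture against 105 ± 1.44 alone (log2 fold change 0.34 ± 0.026, adjusted p = 1.3e-13). All 3 coculture libraries were above the libraries grown alone. Gins2 (0.47 ± 0.087) and Cdc6 (0.41 ± 0.075) had the largest log2 rises. In vector cells with olaparib, 23 members were lower in coculture and 3, Dut, Gins3 and Mcm2, were higher (18.5% and 25.5%; median −0.14). In F133V cells with DMSO, 18 were higher and 15 lower (35.6% and 34.8%, median 0.075). Scaling by library size alone gave 10 higher and 23 lower, where 34.6% of all genes called were higher, against 50.6% under TMM. Mcm3, Mcm6, Pola1 and Fen1 changed sign under that scaling. In F133V cells with olaparib, 22 were higher and 8 lower (26.7% and 26.5%, median 0.13). Scaling by library size alone gave 16 higher and 10 lower, where 37.4% of all genes called were higher, against 50.2% under TMM. Uhrf1 was among the 22, at 23.2 ± 0.64 CPM in coculture against 16.5 ± 0.62 CPM alone (log2 fold change 0.50 ± 0.051, adjusted p = 8.0e-11). Its 3 coculture libraries were all above those grown alone.

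The differences between these responses were tested as interactions. The olaparib response in coculture differed between the genotypes for 32 members, above 0 for 13 and below 0 for 19 (35.4% and 32% of all genes), and for 18 and 10 under scaling by library size alone. It was lowest for Mcm10 (−1.59 ± 0.11, adjusted p = 1.0e-15) and highest for Tk1 (1.32 ± 0.15, adjusted p = 2.7e-10). The coculture response with DMSO differed between the genotypes above 0 for 8 members and below 0 for 15 (30.2% and 32.5%), and for 7 and 23 under scaling by library size alone. It was highest for Mcm10 (0.99 ± 0.11, adjusted p = 2.4e-10) and lowest for Rfc2 (−1.22 ± 0.055, adjusted p = 3.4e-21). In F133V cells the olaparib response differed between coculture and growth alone, above 0 for 17 members and below 0 for 11 (32.9% and 31.5%), with 21 and 8 under scaling by library size alone and 15 and 15 with length and GC trends removed. Mcm10 (−1.23 ± 0.12, adjusted p = 7.7e-12) and Tk1 (1.38 ± 0.17, adjusted p = 4.4e-09) were again the extremes. Of all genes called under scaling by library size alone, 65.9%, 35.7% and 61.4% were above 0, in the order given. Under TMM the shares were 52.6%, 48.1% and 51.1%. With length and GC trends removed, 48.6% were above 0 in the last. These 3 interactions share the F133V coculture DMSO libraries, so they do not support each other.

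The macrophages were compared next, with olaparib against DMSO for each partner. Beside vector cells, 29 members were lower with olaparib and 0 were higher by edgeR (14.5% and 14% of all genes; median −0.22), and 0 were higher by DESeq2 or at an unadjusted p under 0.05. Beside F133V cells, 39 were lower and 1, Cdt1, was higher (29% and 28.5%; median −0.53), and all but 1 of the members, Pcna, had groups that did not overlap, beside 61.2% of all genes tested. 29 members fell beside both partners, which are tests on separate libraries, and 5.75% of all genes tested did so. The sum over the members went from 1746 ± 5.83 to 1524 ± 6.20 CPM beside vector cells and from 1695 ± 17.0 to 1265 ± 9.25 CPM beside F133V cells. The difference between the 2 responses, F133V partner minus vector partner, was called below 0 for 30 members and above 0 for 1, Cdt1 (23.7% and 25.7% of all genes).

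Cdc6 (chr11:98907801-98923940) stood at 16.5, 14.9 and 14.8 CPM with DMSO and 12.6, 12.1 and 12.9 CPM with olaparib beside vector cells (log2 fold change −0.30 ± 0.064, adjusted p = 2.5e-04). Beside F133V cells it stood at 21.5, 24.5 and 22.8 CPM with DMSO and 8.29, 9.39 and 8.42 CPM with olaparib (log2 fold change −1.40 ± 0.063, adjusted p = 3.7e-25). Cdc6 was therefore highest of the 4 groups beside F133V cells with DMSO and lowest there with olaparib, and the interaction was −1.11 ± 0.092, adjusted p = 7.0e-15. Ccne1 stood at 7.72, 7.10 and 7.39 CPM with DMSO and 3.29, 3.32 and 2.80 CPM with olaparib beside F133V cells (log2 fold change −1.24 ± 0.10, adjusted p = 1.4e-15). Beside vector cells it stood at 5.03, 4.80 and 4.68 CPM with DMSO and 4.07, 4.70 and 4.32 CPM with olaparib, where the groups overlapped and the change was not called. Tyms (chr5:30058202-30073617), thymidylate synthase, and Prim1 (chr10:128015168-128030037), the catalytic primase subunit, had the next largest falls beside F133V cells. Tyms stood at 15.2, 13.6 and 14.0 CPM with DMSO and 6.43, 6.91 and 7.16 CPM with olaparib beside F133V cells (log2 fold change −1.06 ± 0.08, adjusted p = 1.2e-16), and Prim1 at 14.0, 15.1 and 15.5 CPM with DMSO and 6.98, 7.82 and 7.52 CPM with olaparib (log2 fold change −1.002 ± 0.076, adjusted p = 2.1e-16). No olaparib library reached a DMSO library for either gene. Rrm2 had the second largest fall beside vector cells, with 36.7, 35.1 and 34.9 CPM under DMSO and 24.3, 26.3 and 23.8 CPM under olaparib (log2 fold change −0.52 ± 0.045, adjusted p = 1.1e-13), after E2f2 (log2 fold change −0.58 ± 0.064, adjusted p = 3.1e-10).

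3 members did not fall beside F133V cells. Cdt1 (chr8:122568015-122573554) stood at 89.9, 90.0 and 91.6 CPM with DMSO and 99.0, 96.7 and 102 CPM with olaparib (log2 fold change 0.14 ± 0.026, adjusted p = 1.5e-05), and the 3 olaparib libraries were all higher. Beside vector cells it stood at 112, 112 and 115 CPM with DMSO and 117, 112 and 109 CPM with olaparib, and the groups overlapped. Pcna, the most abundant member in macrophages by CPM, stood between 129.8 and 135 CPM with DMSO and 134, 127 and 136 CPM with olaparib beside F133V cells, and was not called (log2 fold change −0.0033 ± 0.023, adjusted p = 0.92). Gins3 was not called with either partner (0.071 ± 0.046 and 0.10 ± 0.048). Between partners, with DMSO 11 members were higher and 11 lower beside F133V cells (25.5% and 28.1% of all genes; median −0.0094). With olaparib 36 were lower and 0 higher by edgeR (17.6% and 17.6%; median −0.26), with 0 higher by DESeq2 or at an unadjusted p under 0.05. The highest with DMSO were Ccne1 (0.61 ± 0.093) and Cdc6 (0.57 ± 0.057), and the lowest Cdt1 (−0.32 ± 0.026). With olaparib the lowest were Prim1 (−0.55 ± 0.081) and Cdc6 (−0.53 ± 0.071). The 2 kinds of macrophage comparison use the same 12 libraries and are 2 views of the same values.

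**Figure D4:**
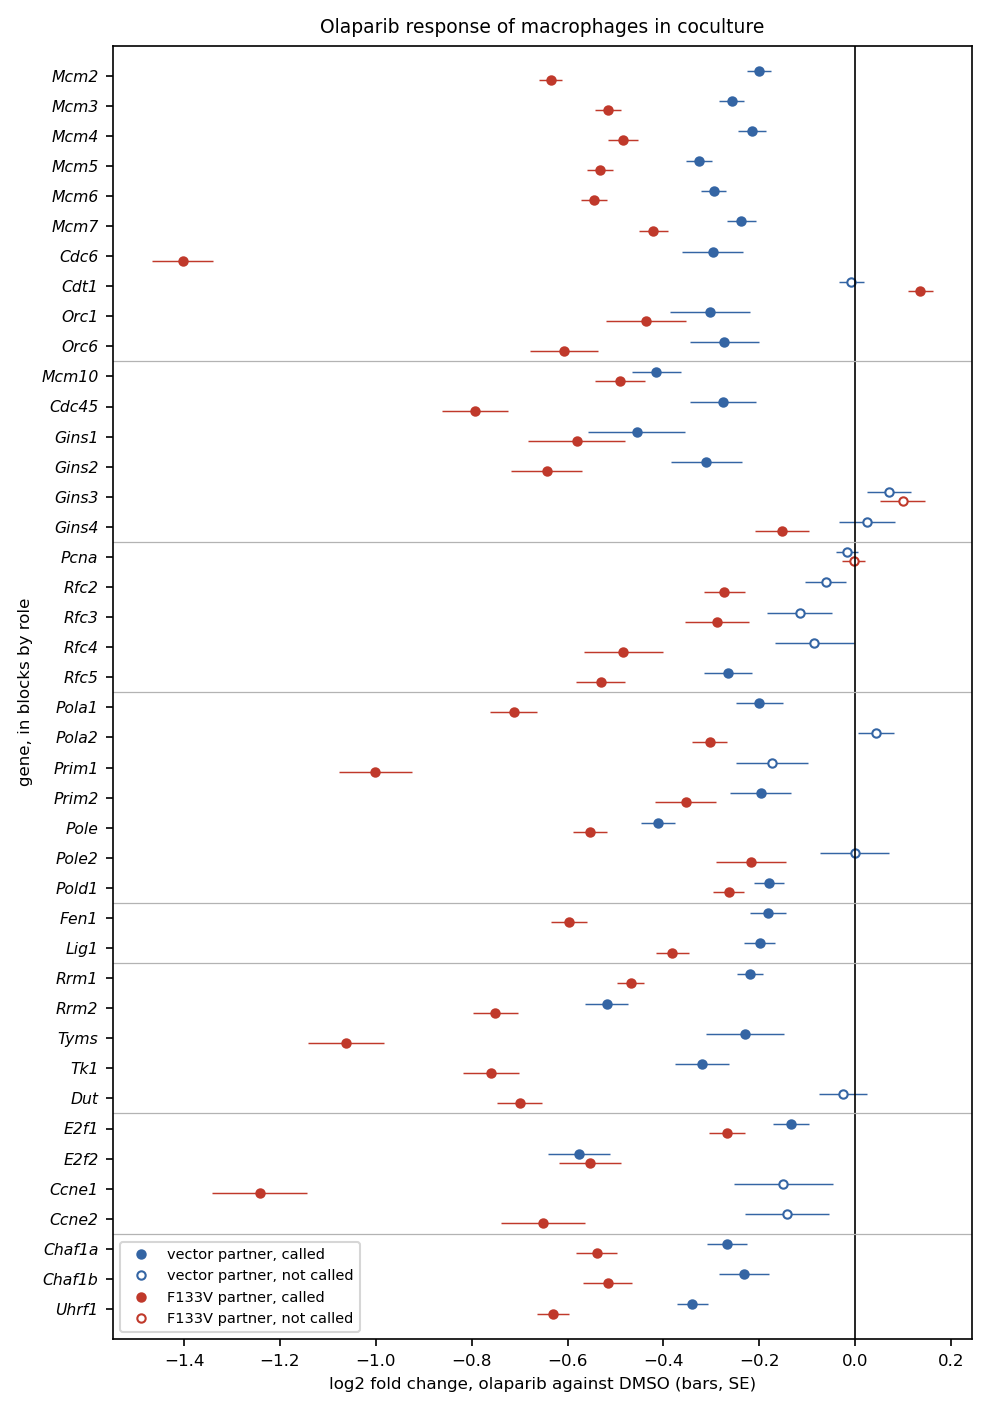
Log2 fold change with olaparib (horizontal axis, bars are SE) of each member in macrophages beside vector cells (blue) and F133V cells (red); filled points were called. Most points lie to the left of 0, and the red points for Cdc6, Ccne1, Tyms and Prim1 lie farthest to the left.

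Levels of the subunits of 1 complex were compared per length, as CPM per kb of the principal transcript in GENCODE M21. The 6 MCM2-7 genes, whose proteins form a ring with 1 copy of each, were closest to each other in macrophages, where the highest subunit (Mcm6) was 1.88 to 2.09 times the lowest (Mcm4) in all 4 groups. In vector cells the ratio was 3.36 to 4.50, with Mcm5 the lowest in all 4 groups and Mcm6 or Mcm2 the highest. In F133V cells it was 6.92 to 9.63, with Mcm5 lowest and Mcm2 highest in all 4 groups. Per kb, Mcm2 stood at 31.0 ± 0.43 in vector cells alone with DMSO and 46.4 ± 0.13 in F133V coculture with DMSO, and Mcm5 at 8.43 ± 0.21 and 4.82 ± 0.25. The clamp-loader genes Rfc2, Rfc3, Rfc4 and Rfc5 lay within 1.69 to 1.94 times of each other in vector cells and within 1.26 to 1.33 times in macrophages. In F133V cells the highest was 2.47 times the lowest alone with DMSO, 2.95 alone with olaparib, 2.56 in coculture with olaparib and 5.62 in coculture with DMSO. Rfc5 was the lowest of the 4 loader genes in each F133V group, and the highest was Rfc3 in coculture with DMSO and Rfc2 in the other 3. Among the GINS genes Gins4 was highest and Gins2 lowest in all 12 groups, with a ratio of 5.23 to 7.64 in the vector groups, 9.57 to 16.5 in the F133V groups and 4.42 to 6.20 in the macrophage groups. These ratios have no test of their own, and CPM scaling differs between the cell types. Ranks and ratios can also depend on the length used. All annotated exons of Mcm2 span 6956 bases against 3371 in its principal transcript. Those of Mcm5 span 3993 against 3381, and those of Mcm4 3589 by either measure. Levels per length of all exons were not computed. Exon overlaps also leave the GINS and clamp-loader ranks and ratios uncertain, with no strand setting stated. The overlaps cover 67.3% of the exonic bases of Gins2, 15.1% of Rfc2, 12.7% of Rfc4 and 10.7% of Rfc5.

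**Figure D5:**
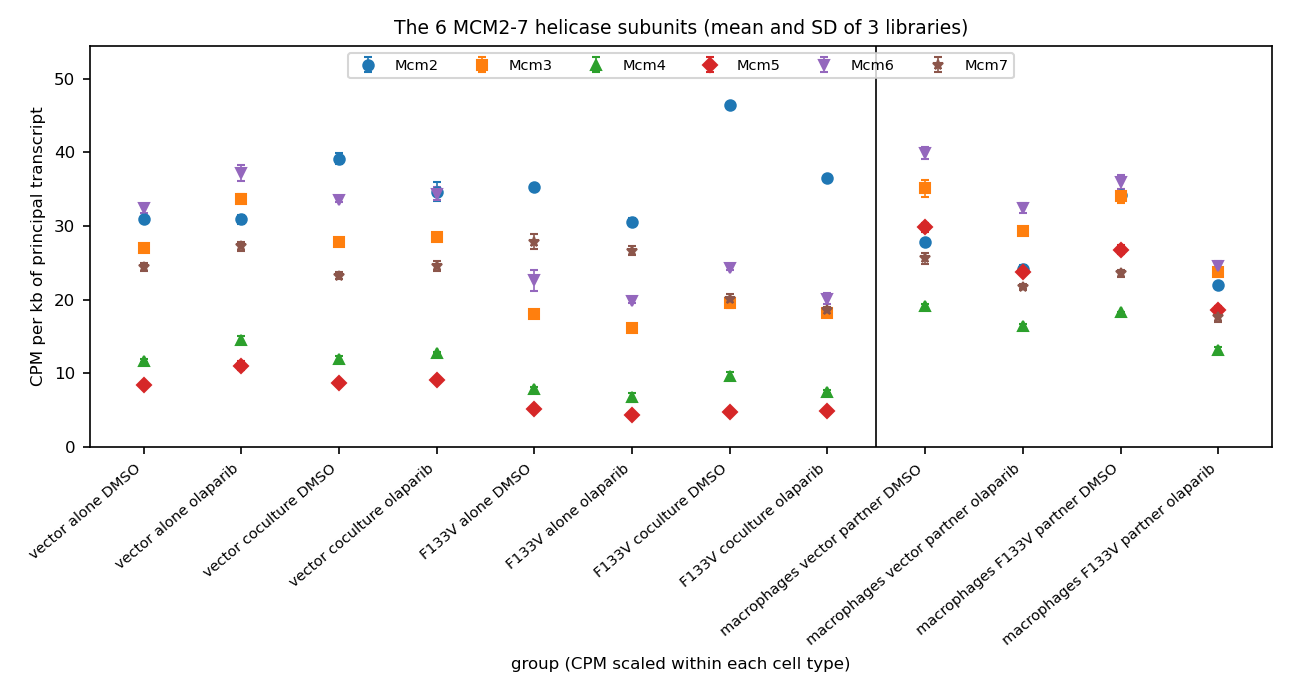
CPM per kb of principal transcript (vertical axis) of the 6 MCM2-7 subunit genes in the 12 groups (points are means of 3 libraries, bars SD). Mcm5 is the lowest in the 8 cancer groups, and the 6 genes lie closest together in the 4 macrophage groups on the right.

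Other genes of the pathway, listed apart from the 42, were counted in the same fits. The shares of all genes tested to read these counts against are 34% lower and 33.7% higher in F133V cells alone with DMSO, 15.3% higher and 15.1% lower with olaparib in vector cells alone, and 29% lower and 28.5% higher with olaparib in macrophages beside F133V cells. Of 30 other replication factors, 17 were lower and 7 higher in the first of these comparisons, 13 rose and 3 fell in the second, and 20 fell and 4 rose in the third. Clspn, the checkpoint adaptor claspin, was lower in F133V cells (−1.65 ± 0.08). Dbf4, the activator of the CDC7 kinase, was higher in F133V cells in coculture with DMSO (0.94 ± 0.03) and fell there with olaparib (−0.97 ± 0.03). Pold2, a polymerase delta subunit, did the reverse (−1.36 ± 0.055 and 0.77 ± 0.058). Of 27 other E2F and RB network genes tested, 20 were lower and 5 higher in F133V cells alone with DMSO. Ccnd1, the cyclin D1 gene, was lower (−0.90 ± 0.022), and also in coculture with DMSO (−2.34 ± 0.025). In macrophages with DMSO, Ccnd2 was higher beside F133V cells (1.37 ± 0.11). Of 10 other nucleotide supply genes, 6 were lower and 3 higher in F133V cells alone with DMSO. Shmt1, a folate enzyme that serves thymidylate synthesis, fell with olaparib in macrophages beside F133V cells (−1.25 ± 0.083). Of 12 other chromatin replication genes, 7 were lower and 2 higher in F133V cells alone, and 12 fell with olaparib in macrophages beside F133V cells, among them Hells, a chromatin remodeller (−0.79 ± 0.038).

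A list of 20 mitosis genes was set beside the members to show where G2 and M phase genes moved with them. In F133V cells alone with DMSO all 20 were lower (34% of all genes tested), among them Mki67 (−1.73 ± 0.036). With olaparib in vector cells alone all 20 rose (15.3% of all genes), Mki67 by 0.26 ± 0.032. With olaparib in F133V cells in coculture all 20 rose (39.3% of all genes), Cenpf by 1.45 ± 0.034, where 21 of the 42 members fell and 16 rose. Under scaling by library size alone 11 members fell and 21 rose, where 63.5% of all genes called rose. In F133V cells in coculture with DMSO, 14 of the 20 were lower than alone and 1 was higher (34.8% and 35.6% of all genes). In macrophages beside F133V cells, 11 of the 20 fell and 3 rose with olaparib (29% and 28.5%), where 39 members fell. Beside vector cells, 20 of the 20 fell (14.5% of all genes), where 29 members fell. Whether the 2 lists differ was not tested.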

How the data were processed

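The 36 RNA libraries came from RM-1-BM cancer cells (24) and RAW264.7 macrophages (12). Total RNA was taken with TRIzol and prepared with standard Illumina protocols, per the labels' protocols. The deposited values are raw read counts per gene on GRCm38; the submitters' processing notes name STAR, TopHat, HTSeq and DESeq2, without versions; the aligner and the strand setting behind the counts are not given in the sources used. The 5 HTSeq summary rows were left out. The genotype entry of the macrophage samples was not used, since it names the partner for 1 F133V partner group and not for the other.

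Counts were tested with the quasi-likelihood F test of edgeR 4.0.16 in R 4.3.3, 1 fit per cell type over all of its groups. Genes were kept by filterByExpr (minimum count 10) and libraries scaled by TMM, with Benjamini-Hochberg adjustment and calls at an adjusted p under 0.05. The fits held 15962 genes with 16 residual degrees of freedom and 14262 genes with 8, and the script was tested on simulated data. An interaction is the difference between 2 log2 fold changes. Library totals ran from 30292309 to 43062440 gene counts (median 36623719), and the biological coefficient of variation was 2.61% in cancer cells and 1.81% in macrophages. All 42 members could be named; in each comparison the called members with the largest and smallest change by role came first, and up to 6 genes per other list by smallest adjusted p. The members and lists were chosen with earlier results of these data known. Positions and exon overlaps are from GENCODE M21, promoter sequences from RefSeq. Alternatives were RLE scaling, library size alone, DESeq2 1.42.0, no filter, only the groups compared, a replicate block, length and GC trends removed, and each library left out in turn. Figures were drawn with matplotlib 3.10.9.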

Additional observations from a re-analysis of the deposited data

Results flagged for a closer look

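The 5 tests of a difference between 2 responses are listed here because each asks whether 2 groups answer the same treatment alike, and called members differ between the groups by that test. For olaparib in vector against F133V cells grown alone, 34 members were called, from −0.997 on the log2 scale for Orc1 to 0.26 for Dut. For the same contrast in coculture, 32 members were called, from −1.59 for Mcm10 to 1.32 for Tk1. For coculture in vector against F133V cells with DMSO, 23 members were called, from −1.22 for Rfc2 to 0.99 for Mcm10. For olaparib in F133V cells in coculture against alone, 28 members were called, from −1.23 for Mcm10 to 1.38 for Tk1. For olaparib in macrophages beside F133V against vector cells, 31 members were called, from −1.11 for Cdc6 to 0.14 for Cdt1. These counts are to be read against the shares of all genes tested that were called below and above 0. In the order given, the shares were 10.9% and 13.3%, 32% and 35.4%, 32.5% and 30.2%, 31.5% and 32.9%, and 23.7% and 25.7%. The tests on 32, 23 and 28 called members share the F133V coculture DMSO libraries. In those libraries structural RNA stood at 477 CPM, Gm26917 took 3.6% of gene counts and TMM factors were the lowest of the cancer cells. The part of each in the values was not tested.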

How the results depend on the processing

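Over the alternatives run, 304 counts of called members kept their direction and stayed within 1.5 times, and 4 did not. Of the values for single members, 12327 kept their direction and their side of the threshold, 22 reversed, 423 lost a call and 164 gained one. With only the groups compared in the fit, olaparib in vector coculture called 16 members in place of 10. Under scaling by library size alone the median over all genes moved by −0.253 to 0.206 across comparisons, and the balance of 3 counts turned: olaparib in F133V coculture (32 called, median 0.13), coculture in F133V cells with DMSO (33, median −0.13) and the genotype by olaparib interaction in coculture (28, median 0.088). It also reversed single members: F133V against vector in coculture with DMSO, Mcm2 −0.0079, Cdt1 −0.18 and Fen1 −0.0026; olaparib in F133V coculture, Mcm3 0.10, Mcm7 0.089 and Pola1 0.17; coculture in F133V cells with DMSO, Mcm3 −0.10, Mcm6 −0.11, Pola1 −0.14 and Fen1 −0.027; the genotype by olaparib interaction in coculture, Mcm2 0.032, Mcm3 0.068 and Mcm7 0.0074; the genotype by coculture interaction, Mcm2 −0.11 and Mcm3 −0.097. With length and GC trends removed (known for 99.4% and 99.5% of the genes tested), those reversed were Mcm2 0.10 and Mcm7 0.094 for F133V against vector alone with olaparib, Orc6 0.21, Rfc3 0.21 and Ccne2 0.019 for the same in coculture with DMSO, Mcm5 −0.13 for olaparib in F133V coculture, and Pold1 0.0025 between macrophage partners with DMSO. For the 3 counts whose balance turned, 63.5%, 34.6% and 65.9% of all genes called were higher under scaling by library size alone. Under TMM the shares were 51.5%, 50.6% and 52.6%. The cause of the changes was not tested.

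Leaving out each library in turn gave 36 to 39 called members for F133V against vector alone with DMSO, 39 alone with olaparib, 35 to 36 in coculture with DMSO and 39 to 40 in coculture with olaparib. For olaparib it gave 30 to 33 in vector cells alone, 7 to 10 in vector coculture, 14 to 20 in F133V cells alone, 36 to 37 in F133V coculture, 27 to 29 in macrophages beside vector and 38 to 40 beside F133V cells. For coculture it gave 12 to 17, 23 to 25, 32 to 33 and 23 to 28 in vector DMSO, vector olaparib, F133V DMSO and F133V olaparib. Between macrophage partners it gave 21 to 23 with DMSO and 30 to 34 with olaparib. For the 5 interactions, in the order given above, it gave 31 to 34, 29 to 32, 22 to 25, 26 to 30 and 30 to 32. Same-numbered replicates did not deviate together within a cell type (correlations −0.042 to 0.043). For olaparib against DMSO in vector coculture, all 3 libraries correlated best with their own number, though only at 0.0034 to 0.043. The correlations gave no clear sign of pairing by number but cannot exclude it. Cancer cell and macrophage libraries of the same coculture were not compared in this way. The replicate block gave 39 called members for F133V against vector alone with DMSO and 9 for olaparib in vector coculture, and stayed within 1.5 times of every count. The planned fit without vector libraries holding macrophage transcripts was not run, since 0 libraries met its criterion, and the fit without the 2 vector libraries high in Lyz2, which leaves 1 library in its group, was chosen after seeing the data.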
